A study of Homo sapiens with 14 samples.

Results

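The genes described here were 10 genes for proteins that the liver releases into the blood. They were TTR, APOA1, APOA2, APOB, APOC3, AGT, ALB, AFP, SERPINA1 and FGB. They were chosen by their TPM in these same data, as genes lower with I-BET151 than with DMSO and higher in ePP-β cells than in ePPs, so their values in those comparisons are a description with no test. All 10 were found among the 60624 gene identifiers listed in each library. The 14 libraries all came from MEL1, a human embryonic stem cell line. The labels give no genetic change, but the methods name the line as MEL1 INS GFP/W, which carries a GFP reporter in the insulin gene, so all groups would share it. The hPSC group was undifferentiated cells grown on CF1 feeder cells, DE was definitive endoderm, PP2 was pancreatic progenitors and SC-β was β-like cells made directly from hPSCs by stepwise addition of factors. Each of these 4 groups had 1 library, and all of them were in batch 1. Expandable pancreatic progenitors, or ePPs, were taken at passage 9 (ePP-P9) and passage 21 (ePP-P21), and the ePP-β group was β-like cells made from them. Each of these groups had 2 libraries in batch 2. By the methods, ePPs grew on feeder cells in a medium with EGF, bFGF, 616452 (an inhibitor of TGFβ signalling) and 1 μM I-BET151, so the ePP libraries were also exposed to I-BET151, which is not listed for the media that made ePP-β. The DMSO and I-BET151 groups were pancreatic progenitors kept for 7 days in solvent (DMSO) or in I-BET151 at 1 μM, with 2 libraries each in batch 3. I-BET151 blocks the bromodomains of the BET proteins, which read acetylated histones. For the chemical screen such progenitors were first passaged without I-BET151 in EGF, bFGF and 616452. The labels do not say that replicates were separate cultures, so the spread between 2 libraries may be technical.

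Hepatocytes make most plasma proteins, and their genes are read by a shared set of factors that includes the HNF1, HNF4, FOXA and C/EBP families. Several of these factors also work in the pancreas and the gut, which arise from the same endoderm. Some of the proteins are known from other endodermal cells too. Islet cells make transthyretin, enterocytes make apolipoproteins, and the yolk sac makes α-fetoprotein and many other plasma proteins. TTR encodes transthyretin, a carrier of thyroid hormone and of retinol-binding protein. ALB encodes albumin and AFP its fetal relative α-fetoprotein. APOA1 and APOA2 are the main proteins of high-density lipoprotein, APOB is the structural protein of chylomicrons and very low-density lipoprotein, and APOC3 slows the clearance of triglyceride-rich particles. SERPINA1 is α1-antitrypsin, an inhibitor of neutrophil elastase, AGT is angiotensinogen, the precursor of the angiotensins, and FGB is the β chain of fibrinogen.

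The promoters of AFP, ALB, FGB, AGT and APOA2 are shown because each held a match to a motif marked below. The factors above are known to read sequences such as the HNF1 and FOXA motifs. RefSeq (GRCh38.p14) gave promoter windows for 6 of the 10 genes, which were the 5 named here and SERPINA1, as 8 windows in all. The SERPINA1 windows held no match to any motif searched and are not printed. TTR, APOA1, APOB and APOC3 were not matched. Each line holds the 140 bases before the listed start, 5′ to 3′ on the gene's strand. Capitals mark a match to the HNF1 motif in AFP, ALB and FGB, to the FOXA motif in APOA2, and to the TATA box in AGT and AFP.
AFP (chr4:73436081-73436220, plus strand): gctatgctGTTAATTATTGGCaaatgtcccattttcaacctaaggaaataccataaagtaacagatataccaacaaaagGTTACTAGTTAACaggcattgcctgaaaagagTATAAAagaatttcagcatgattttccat
ALB (chr4:73404147-73404286, plus strand): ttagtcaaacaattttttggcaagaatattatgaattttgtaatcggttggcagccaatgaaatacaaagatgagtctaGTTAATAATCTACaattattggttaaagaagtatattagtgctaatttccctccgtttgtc
FGB (chr4:154562871-154563010, plus strand): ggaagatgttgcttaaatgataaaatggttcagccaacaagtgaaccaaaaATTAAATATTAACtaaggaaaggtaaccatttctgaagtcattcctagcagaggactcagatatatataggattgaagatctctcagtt
AGT (chr1:230714123-230714262, minus strand): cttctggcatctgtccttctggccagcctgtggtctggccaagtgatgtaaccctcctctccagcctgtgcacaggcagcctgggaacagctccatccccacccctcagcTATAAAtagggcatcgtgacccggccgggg
APOA2 (chr1:161223629-161223768, minus strand): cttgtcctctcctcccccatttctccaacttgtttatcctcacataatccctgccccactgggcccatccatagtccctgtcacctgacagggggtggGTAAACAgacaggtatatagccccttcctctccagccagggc

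The motifs were searched over the whole windows, from 250 bases before to 50 bases after the start. The palindromic HNF1 motif, on both strands with up to 2 mismatches, was found in 4 of the 8 windows and in 1.31% of all 35116 windows. In AFP and ALB a match began at the same place, 61 bases before the start, and AFP held another match that began 132 bases before it. The C/EBP motif TTGCNNAA was found in 4 of the 8 windows, of ALB, AFP and FGB, and in 10.5% of all windows. The FOXA motif TGTTTAC was found in 1 window, of APOA2, and in 3.42% of all. The HNF4 motif CAAAGTCCA was in none of the 8 and in 0.384% of all. The TATA box TATAAA, on the gene's strand from 40 to 20 bases before the start, was in the AGT and AFP windows and in 2.3% of all. No motif here overlapped another within the printed lines. The FGB windows overlap each other and count as 2. Such matches are letters in a window, and binding was not measured here.

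The 10 genes lie on 6 chromosomes. In GENCODE release 44 (GRCh38), the release used for names and positions, ALB (chr4:73397114-73421482) and AFP (chr4:73431138-73456174) stand side by side on the plus strand, 9.65 kb apart. APOC3 (chr11:116829706-116833072, plus strand) and APOA1 (chr11:116835751-116837622, minus strand) stand 2.68 kb apart. FGB (chr4:154563011-154572807), TTR (chr18:31557009-31598833), APOA2 (chr1:161222292-161223631), AGT (chr1:230690776-230745576), APOB (chr2:21001429-21044073) and SERPINA1 (chr14:94376747-94390693) each stand apart from the other members. All 10 are protein-coding genes, and values are for whole genes. AGT overlaps COG2 on the other strand, which was listed at 11.5 to 50.3 TPM, and a lncRNA on its own strand with at most 17.9 TPM. The use of strand in counting is not given in the sources used here, so reads of AGT and COG2 may not have been told apart.

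The deposited values were in TPM, a share of the library per transcript length that allows genes to be compared. TPM keeps no read number, and depth is therefore unknown. Between 14982 and 17578 genes per library reached 1 TPM. The 37 mitochondrial genes were listed at 0 throughout, so a gene at 0 is called listed at 0. In the I-BET151 experiment the replicates differed in composition. Ribosomal protein genes took 19.1% of the listed TPM in DMSO replicate 1, 15.6% in I-BET151 replicate 1, 26.4% in DMSO replicate 2 and 26.3% in I-BET151 replicate 2. Among the lineage genes, the ePP-β libraries held INS at 10916 and 17374 TPM and the SC-β library at 20657 TPM, and NKX6-1 was at 176 to 213 TPM in the ePPs. SC-β also held GCG at 74281 TPM and ePP-β at 14107 and 13360 TPM, so the alpha cell hormone glucagon was above insulin in SC-β and in ePP-β replicate 1. The ePP-β libraries held only 0.463 and 0.538 TPM of IAPP, a β cell peptide, and SC-β held 9.62 TPM.

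The 10 genes together took from 0.000322% of the listed TPM in hPSC to 3.49% in SC-β. The share was 0.0047% in DE and 0.518% in PP2. It was 0.0304% to 0.0351% in the 4 ePP libraries, below that of PP2, and 2.05% and 2.26% in the ePP-β libraries. It was 1.27% and 1.11% with DMSO against 0.161% and 0.362% with I-BET151. The hPSC, DE, PP2 and SC-β groups have no replicates, and batch and group cannot be told apart between batches, so the order of groups across batches is a description. These are bulk libraries, in which fewer cells of a type and less RNA per cell cannot be told apart.

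**Figure D1:**
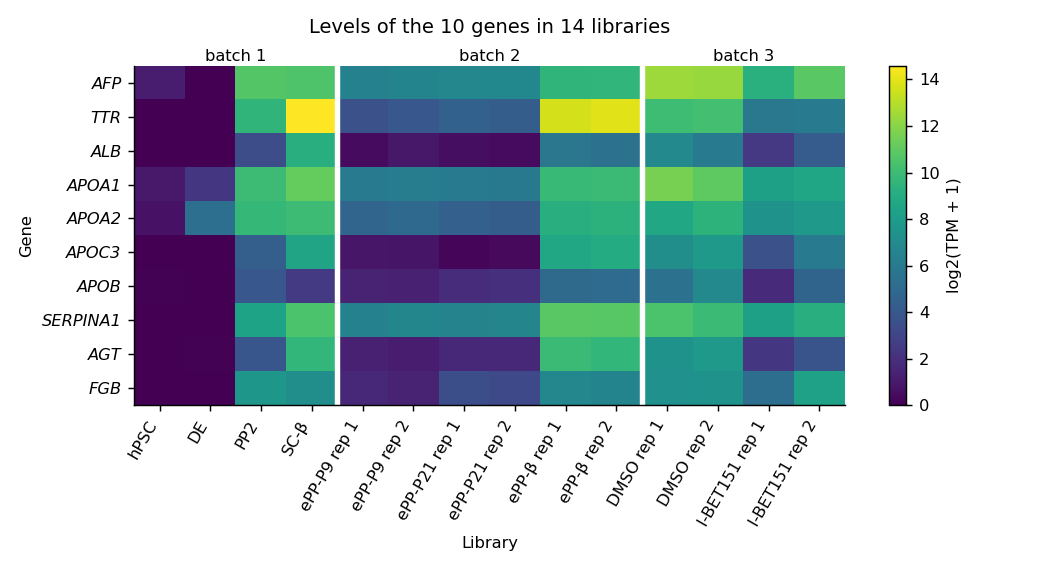
Each column is a library and each row a gene, coloured by log2(TPM + 1), with white lines between the 3 batches. The hPSC and DE columns are dark, the ePP columns are darker than PP2 and ePP-β, and the I-BET151 columns are darker than DMSO except for FGB in replicate 2.

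Transthyretin dominated the β-like cells, and α-fetoprotein the progenitors kept with DMSO or with I-BET151. Both hPSC and DE listed TTR at 0, and PP2 held 749 TPM of it. It was at 24727 TPM in SC-β, and made up 75.4% of the summed TPM of the 10 genes there. In ePP-β it was at 13015 and 15556 TPM, or 69.6% and 73.1% of the sum. AFP was at 1.25 TPM in hPSC, 0.02 TPM in DE, 1646 TPM in PP2 and 1502 TPM in SC-β. In the DMSO libraries AFP was at 5526 and 5198 TPM, its highest level in any group, and made up 45.5% and 47.6% of the sum. Its share of the sum was 40.1% and 52.8% in the I-BET151 libraries, 33.6% in PP2 and 30.1% to 35.4% in the ePPs.

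Albumin and α-fetoprotein, whose genes are neighbours, differed in proportion between groups. The level of ALB was 0.0217 TPM in DE, 10.1 TPM in PP2 and 560 TPM in SC-β, and hPSC listed it at 0. For every 100 TPM of AFP there were 37.3 TPM of ALB in SC-β, 7.38 and 5.4 TPM in the ePP-β libraries, 2.08 and 1.27 TPM in the DMSO libraries and 0.61 TPM in PP2. ALB was thus far below AFP in each of these libraries, and the gap was narrowest in SC-β.

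The apolipoprotein genes did not all follow the same order of groups. APOA1 was highest in DMSO (2569 ± 762 TPM, SD, n = 2) and at 2254 TPM in SC-β, within the spread of the DMSO libraries. APOA2 was already at 39 TPM in DE, where the other members were at 3.86 TPM or less, and it was at 838 TPM in PP2 and 1029 TPM in SC-β. APOC3 reached 20.4 TPM in PP2 and 371 TPM in SC-β, the latter below the 435 and 506 TPM of ePP-β. APOB was at 14.8 TPM in PP2 but at only 4.47 TPM in SC-β, and was highest in DMSO.

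SERPINA1, AGT and FGB were listed at 0 or were under 0.1 TPM in hPSC and DE. SERPINA1 reached 358 TPM in PP2 and 1415 TPM in SC-β, while AGT reached 13.8 TPM and 794 TPM. FGB was at 207 TPM in PP2 and 145 TPM in SC-β, so it was the one member with its highest group mean in PP2. The I-BET151 mean of FGB, 182 ± 205 TPM, and the DMSO mean, 170 ± 3.47 TPM, came next, and these neighbours in the order did not differ beyond the spread of I-BET151.

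Across the 14 libraries, log2(TPM + 1) of the 45 pairs of members had Pearson correlations of 0.72 to 0.96 with a median of 0.86. The closest pairs included TTR with AGT, APOC3 with AGT and APOA1 with SERPINA1, each at 0.96, and the least alike were AGT and AFP at 0.72. These points share batches and groups, so the values are descriptive.

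The DMSO and I-BET151 libraries show how the levels of these genes compared in pancreatic progenitors after 7 days with or without the BET inhibitor. Of the 10 genes, 9 were lower in both I-BET151 libraries than in both DMSO libraries. Over all 16687 tested genes, 18% were lower without overlap. The median log2 fold change of the 10 was -2.79, beside 0.16 over all tested genes. In limma, 0.204% of all tested genes were called lower, at an adjusted p under 0.05 and a log2 fold change beyond 1. The rule that chose the genes used this contrast, so these counts describe the choice.

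Of the carrier proteins, TTR differed more than ALB and AFP. TTR was at 1049 and 1220 TPM with DMSO and at 55.6 and 60.7 TPM with I-BET151. The means differed 19.5-fold, with a log2 fold change of -4.26 (SE 0.30), and the I-BET151 libraries were close to each other. ALB was at 115 and 66.2 TPM with DMSO and at 4.32 and 17.8 TPM with I-BET151, a log2 fold change of -3.14 (SE 0.69). AFP was at 5526 and 5198 TPM with DMSO and at 617 and 1871 TPM with I-BET151, a log2 fold change of -2.32 (SE 0.59). AFP stayed the most abundant of the 10 genes in both I-BET151 libraries.

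All 4 apolipoprotein genes were lower in both I-BET151 libraries. APOA1 was at 3108 and 2030 TPM with DMSO and at 307 and 380 TPM with I-BET151, a log2 fold change of -2.87 (SE 0.37). APOA2, the gene with the smallest difference among these, was at 436 and 681 TPM against 179 and 224 TPM, a log2 fold change of -1.44 (SE 0.37). APOC3 was at 148 and 227 TPM against 11.3 and 64.2 TPM, a log2 fold change of -2.70 (SE 0.83). APOB was at 41.9 and 116 TPM against 2.45 and 24.9 TPM, a log2 fold change of -2.90 (SE 1.06). The wide error of APOB came with a 10.2-fold gap between the I-BET151 libraries.

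AGT differed most and FGB did not separate the groups. AGT was at 172 and 229 TPM with DMSO and at 3.88 and 13.1 TPM with I-BET151, a log2 fold change of -4.59 (SE 0.57). SERPINA1 was at 1387 and 977 TPM against 319 and 565 TPM, a log2 fold change of -1.45 (SE 0.43). FGB was at 167 and 172 TPM with DMSO, while its I-BET151 libraries, at 37.1 and 327 TPM, lay on both sides of them. Its log2 fold change was -0.61 (SE 1.01), and it became 0.94 without I-BET151 replicate 1.

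I-BET151 replicate 2 was above replicate 1 for all 10 genes, from 1.09-fold for TTR to 10.2-fold for APOB. The DMSO replicates did not share such a direction, with 6 genes higher in replicate 2 and 4 in replicate 1. Without I-BET151 replicate 1 the median log2 fold change of the 10 genes was -1.51.

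**Figure D2:**
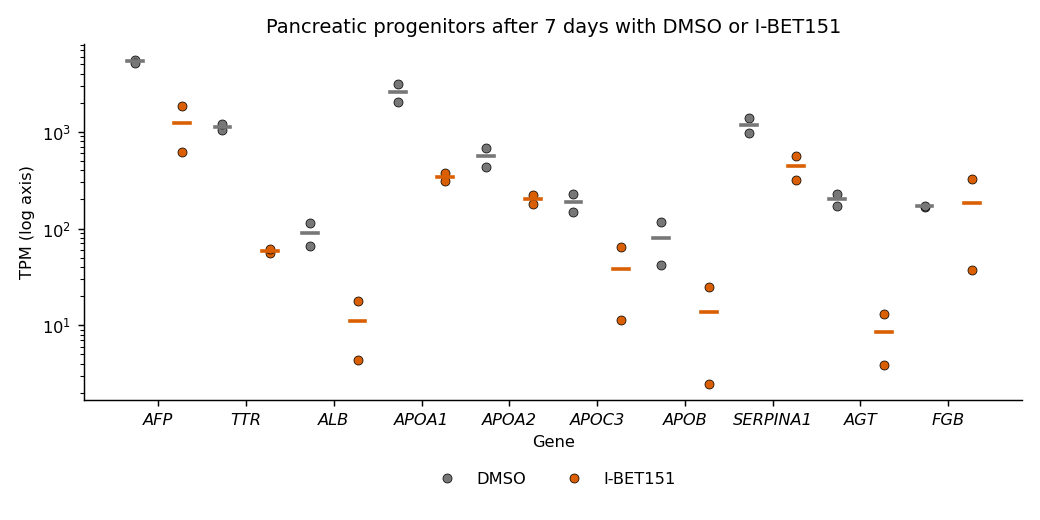
Points are the 2 libraries of each group and bars their means, in TPM on a log axis, for the 10 genes. Except for FGB, both I-BET151 points (orange) lie below both DMSO points (grey), and the I-BET151 points of TTR, at 55.6 and 60.7 TPM, are nearly the same.

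The other genes for secreted proteins of the liver were counted from lists of 95 genes. Of the 60 tested, 3 were called lower and 0 higher with I-BET151, beside 0.204% and 0.00599% of all tested genes. At an unadjusted p under 0.05 in limma, 41 were lower and 0 higher, beside 8.98% and 6.21% of all tested genes. The groups did not overlap for 49 that were lower and 1 that was higher, beside 18% and 28.7% of all tested genes. Of the tested genes, 17 were under 1 TPM in both I-BET151 libraries and had passed the filter through DMSO alone. Over all 95 genes, tested or not, 73 were lower without overlap, 3 were higher and 19 overlapped. The median log2 fold change of the tested genes was -1.60.

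The 3 called genes encode a steroid carrier, a retinol carrier and a complement protein. SERPINA6, the plasma carrier of cortisol, was at 75.3 and 72 TPM with DMSO and at 3.12 and 5.05 TPM with I-BET151, a log2 fold change of -3.90 (SE 0.34, adjusted p = 0.048, limma). RBP4, the retinol carrier that binds transthyretin in plasma, was at 22.1 and 16.3 TPM against 0.494 and 0.72 TPM, a log2 fold change of -3.64 (SE 0.33, adjusted p = 0.048). C3, the central complement protein, was at 267 and 188 TPM against 5.38 and 9.37 TPM, a log2 fold change of -4.79 (SE 0.40, adjusted p = 0.048). The groups stood well apart in each. RBP4 was under 1 TPM in both I-BET151 libraries and had passed the filter through DMSO alone. The count of 3 was 0 without a filter or with a pseudocount of 0.1 or 0.01, and was 9 without DMSO replicate 1, 12 without DMSO replicate 2, 21 without I-BET151 replicate 1 and 32 without I-BET151 replicate 2.

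By kind of protein, 0 of 12 tested apolipoprotein and lipoprotein assembly genes, 0 of 15 clotting genes, 1 of 10 protease inhibitor genes, 1 of 10 plasma carrier genes and 1 of 13 complement and acute phase genes were called lower, and 0 of each higher. At an unadjusted p under 0.05 in limma, 7, 12, 6, 7 and 9 of them were lower and 0 higher, beside 8.98% and 6.21% of all tested genes. In the same order, 1, 5, 1, 5 and 5 were under 1 TPM in both I-BET151 libraries and had passed the filter through DMSO alone. The median log2 fold changes of the lists were -1.40, -1.57, -1.90, -1.32 and -1.88. APOE, the most abundant gene of the first list, had means of 2145 TPM with DMSO and 2406 TPM with I-BET151, a log2 fold change of 0.07 (SE 0.47, adjusted p = 0.961), and APOC1, which encodes another apolipoprotein, one of 0.50 (SE 0.30, adjusted p = 0.502). MTTP, which loads lipid onto apolipoprotein B, was at 412 and 165 TPM (log2 fold change -1.38, adjusted p = 0.22). AMBP, the precursor of α1-microglobulin and bikunin, had means of 1126 and 362 TPM (log2 fold change -1.75, adjusted p = 0.192). F2, prothrombin, among the clotting genes with the highest means, was at 218 and 23.6 TPM (log2 fold change -3.10, SE 0.54, adjusted p = 0.097).

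Markers of liver and gut cells moved with the secreted genes. Of all tested genes, 18% were lower and 28.7% higher without overlap, and 0.204% were called lower and 0.00599% higher. Of 30 genes for enzymes and surface proteins of hepatocytes, 18 were tested, 16 were lower without overlap and 2, ASGR1 and ASGR2, the subunits of the asialoglycoprotein receptor, were called lower. Of the 18, 8, with ASGR2 among them, were under 1 TPM in both I-BET151 libraries and had passed the filter through DMSO alone. Over all 30 genes, tested or not, 21 were lower without overlap and 9 overlapped. Their summed level was 626 and 792 TPM with DMSO and 64.2 and 222 TPM with I-BET151. CYP2E1, SLC10A1, ABCB11 and CYP1A2, genes of the mature hepatocyte, were under 1 TPM in every library, as were 9 of the 30 in all. Of 17 enterocyte markers, 15 were tested and 14 were lower without overlap, with GUCA2A called. Of the 15, 2 had passed the filter through DMSO alone. Over all 17 markers, 15 were lower without overlap and 2 overlapped. Their summed level was 3025 and 4725 TPM with DMSO and 431 and 1230 TPM with I-BET151, and FABP1, the liver and gut fatty acid-binding protein, made up 1230 and 2610 TPM of the former. CDX2, an intestinal transcription factor and the 1 tested marker that overlapped, was at 237 and 104 TPM with DMSO and at 145 and 95.9 TPM with I-BET151. MUC2, a goblet cell mucin, and CDX1 were under 1 TPM in every library. Of 8 visceral endoderm and yolk sac markers, 6 were tested, 3 were lower without overlap, 1 was higher and 2 overlapped. RBP4 was the 1 called lower, and had passed the filter through DMSO alone. Both RBP4 and VTN also stand in the list of plasma carriers. The sum of the 8 was 783 and 417 TPM with DMSO against 321 and 144 TPM with I-BET151. VTN alone was at 672 and 363 TPM with DMSO and at 305 and 126 TPM with I-BET151. Of 9 pancreatic progenitor markers, 8 were tested and all 8 were higher without overlap with I-BET151, 0 of them called, and their sum was 507 and 404 TPM with DMSO against 1471 and 798 TPM. NKX6-1, which marks progenitors of β cells, went from a mean of 77 to 327 TPM (log2 fold change 2.05, SE 0.54, adjusted p = 0.184). The part of these cell markers in the levels of the 10 genes was not tested.

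**Figure D3:**
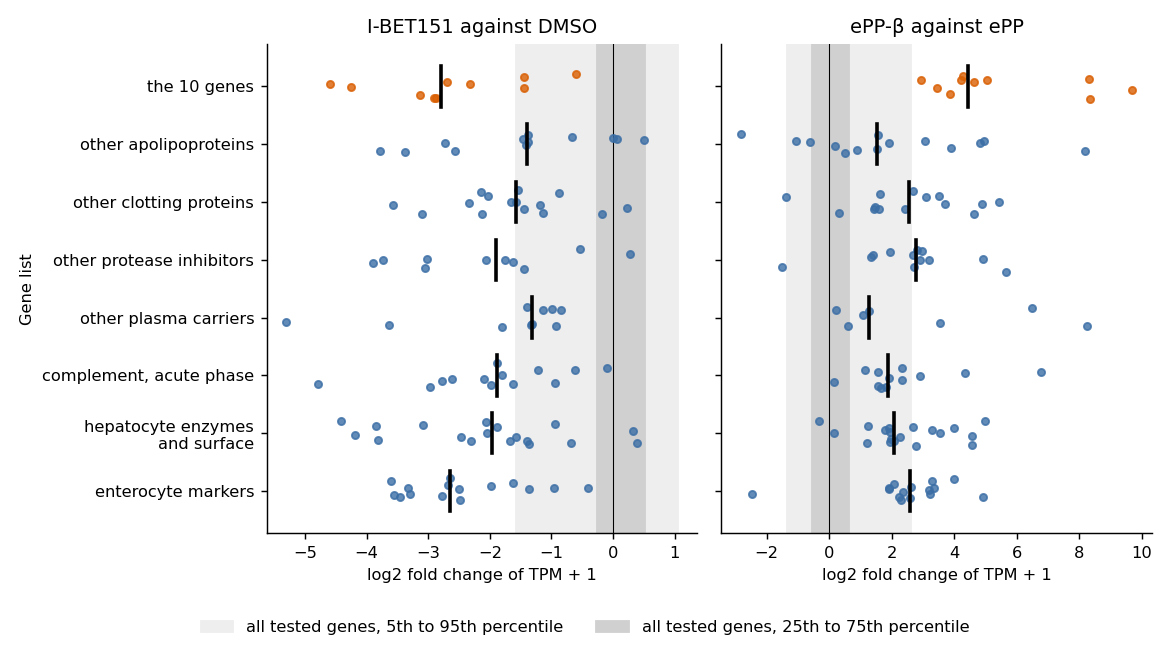
Each point is a tested gene and each black bar the median of its list, as the log2 fold change of TPM + 1 for I-BET151 against DMSO (left) and ePP-β against ePP (right), over grey bands for all tested genes. The lists lie mostly left of 0 on the left, with a median of -2.79 for the 10 genes, and mostly right of 0 on the right, with a median of 4.44.

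The ePP and ePP-β libraries show how the same genes stood before and after ePPs were turned into β-like cells. All 10 genes were higher in both ePP-β libraries than in all 4 ePP libraries. Over all 18076 tested genes, 32.2% were higher without overlap and 17.9% were called higher. The median log2 fold change was 4.44, beside -0.03 over all tested genes. ALB and APOC3 were under 1 TPM in every ePP library and passed the filter through ePP-β alone. These counts again follow from the choice of the genes.

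TTR had the largest log2 fold change. It was at 11.1, 14.4, 22.5 and 18.4 TPM in the ePP libraries and at 13015 and 15556 TPM in ePP-β, an 860-fold difference of means with a log2 fold change of 9.70 (SE 0.14). ALB was at 0.333, 0.891, 0.472 and 0.341 TPM and then at 54.9 and 42.2 TPM, a log2 fold change of 5.04 (SE 0.22). AFP, which differed least of the 10, was at 84.9, 96.1, 105 and 113 TPM and then at 744 and 780 TPM, a log2 fold change of 2.93 (SE 0.08). TTR thus passed from below AFP in every ePP library to far above it in both ePP-β libraries.

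Among the apolipoproteins, APOC3 moved most. It was at 0.809, 0.764, 0.147 and 0.295 TPM in the ePPs and at 435 and 506 TPM in ePP-β, a log2 fold change of 8.32 (SE 0.14). APOA2 was at 26.1, 31.2, 21.5 and 19.1 TPM and then at 576 and 655 TPM, a log2 fold change of 4.62 (SE 0.11). APOA1 was at 66.8, 68.9, 63.2 and 58 TPM and then at 900 and 994 TPM, a log2 fold change of 3.86 (SE 0.07). APOA1 and APOC3 are 2.68 kb apart, and for every 100 TPM of APOA1 there were 0.232 to 1.21 TPM of APOC3 in the ePPs and 48.4 and 51 TPM in ePP-β. APOB was at 1.59, 1.57, 2.56 and 2.91 TPM and then at 32.5 and 33.2 TPM, a log2 fold change of 3.45 (SE 0.14).

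AGT was at 1.5, 1.26, 2.14 and 2.2 TPM in the ePPs and at 977 and 804 TPM in ePP-β, a log2 fold change of 8.34 (SE 0.12). SERPINA1, which was not low in ePPs, was at 85.1, 103, 91.6 and 97.3 TPM and then at 1860 and 1802 TPM, a log2 fold change of 4.27 (SE 0.09). FGB was at 2.2 and 1.72 TPM at passage 9, 10.2 and 8.44 TPM at passage 21 and 108 and 95.6 TPM in ePP-β, a log2 fold change of 4.22 (SE 0.14). For AGT, APOC3 and SERPINA1 the ePP-β mean was the highest of the 9 groups.

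**Figure D4:**
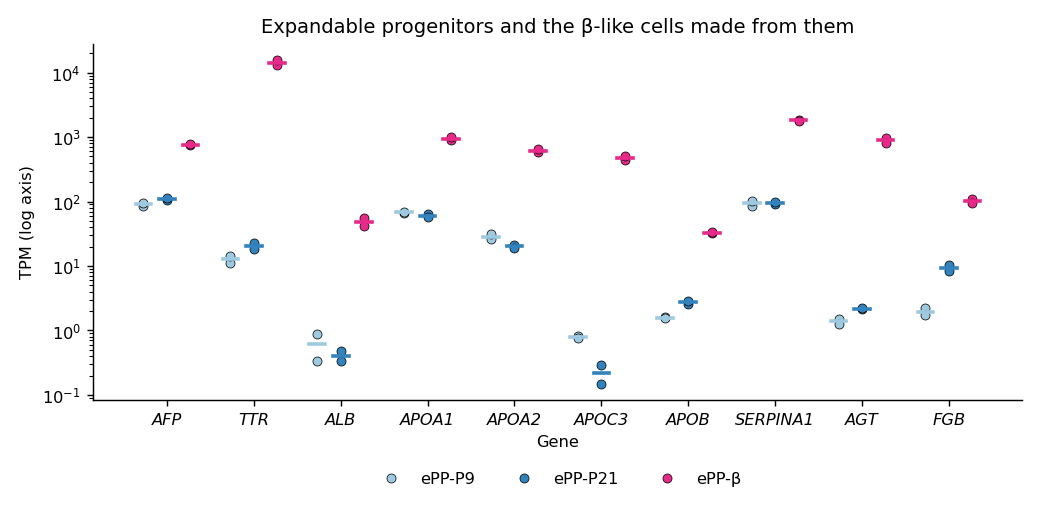
Points are the 2 libraries of each group and bars their means, in TPM on a log axis, for the 10 genes. The ePP-β points (pink) lie above all ePP points (blue) for each gene, and the widest gaps between ePP-P9 and ePP-P21 are those of FGB and APOC3.

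Of the 95 other genes for secreted liver proteins, 59 were tested in this comparison, and 46 were called higher and 4 lower in ePP-β, beside 17.9% and 9.86% of all tested genes. Of the 59, 23 were under 1 TPM in every ePP library. Over all 95, 70 were higher without overlap, 7 were lower and 18 overlapped, and over all tested genes 31.6% were lower without overlap. The median log2 fold change of the tested genes was 1.93. Of the tested genes, 8 of 14 apolipoprotein and lipoprotein assembly genes, 12 of 14 clotting genes, 11 of 12 protease inhibitors, 4 of 7 plasma carriers and 11 of 12 complement and acute phase genes were called higher.

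GC, the vitamin D carrier, which is also known from alpha cells, went from a mean of 0.618 to 455 TPM (log2 fold change 8.25, SE 0.38, adjusted p = 2.39e-05, limma). APOA4, an intestinal apolipoprotein, went from 0.574 to 460 TPM (log2 fold change 8.20, SE 0.17, adjusted p = 3.67e-06). C3 was at 0.134 to 0.392 TPM in the ePPs and at 130 and 141 TPM in ePP-β (log2 fold change 6.77, SE 0.17, adjusted p = 5.27e-06). CP, ceruloplasmin, which carries copper, went from 0.0138 to 98 TPM (log2 fold change 6.50, SE 0.32, adjusted p = 2.94e-05). ITIH1, an inter-α-trypsin inhibitor chain, went from 0.0256 to 50.9 TPM (log2 fold change 5.66, adjusted p = 6.22e-06), and F10, coagulation factor X, from 8.65 to 230 TPM (log2 fold change 4.63, adjusted p = 1.3e-05). Except for F10, these genes were under 1 TPM on average in ePPs, unlike SERPINA1 or AFP.

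Those called lower included SERPING1, the C1 inhibitor (228 to 79.1 TPM, log2 fold change -1.50, adjusted p = 2.28e-05), F5, coagulation factor V (25.2 to 9.11 TPM, log2 fold change -1.37, adjusted p = 0.000158), and LCAT, which esterifies cholesterol in plasma (7.42 to 2.57 TPM, log2 fold change -1.08, adjusted p = 0.00145). LCAT was below the 10 TPM that the naming rule asks for and was named after its values were seen. HP, haptoglobin, an abundant plasma protein, was at most 0.174 TPM in any library.

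Markers of other cells moved here too. Of all tested genes, 17.9% were called higher and 9.86% lower, and 32.2% were higher and 31.6% lower without overlap. All 7 tested of 9 alpha cell markers were called higher in ePP-β, with a summed level of 15328 and 14347 TPM against 7.94 to 14.8 TPM in the ePPs. The sum in SC-β was 75302 TPM. GCG was listed at 0 in all 4 ePP libraries. Of 8 beta cell markers, 7 were tested and 5 were called higher, and the sum was 177 to 214 TPM in ePPs and 11775 and 18150 TPM in ePP-β. Nearly all of the ePP sum was NKX6-1, at 176 to 213 TPM, which also stands among the pancreatic progenitor markers. INS made up 10916 and 17374 TPM of the ePP-β sums. Of the enterocyte markers, 14 of 15 tested were called higher and 1, CDX2, lower, and the sum was 264 to 324 TPM in ePPs and 1208 and 1309 TPM in ePP-β but 207 TPM in SC-β. RBP2, the intestinal retinol-binding protein, went from 5.62 to 199 TPM (log2 fold change 4.92, adjusted p = 6.28e-06). Of the hepatocyte genes, 17 of 19 tested were called higher, and the sum was 31.8 to 38.9 TPM in ePPs and 512 and 580 TPM in ePP-β. ASS1, a urea cycle enzyme, went from 1.02 to 45.8 TPM (log2 fold change 4.56, adjusted p = 1.35e-05), while CYP2E1 was at 0.0169 and 0.175 TPM in ePP-β. Of the visceral endoderm and yolk sac markers, 2 of 5 tested, AMN and RBP4, named to complete the count, were called higher, and the sum was 146 to 269 TPM in ePPs and 247 and 234 TPM in ePP-β. VTN alone was at 125 to 249 TPM in ePPs and at 215 and 200 TPM in ePP-β. Of 8 acinar and ductal markers, 3 of 5 tested were called higher, and the sum was 451 to 522 TPM in ePPs and 668 and 613 TPM in ePP-β. KRT19 alone was at 413 to 499 TPM in ePPs and at 589 and 529 TPM in ePP-β. Of the pancreatic progenitor markers, 5 of 8 tested were called lower and 0 higher, and the sum was 816 to 994 TPM in ePPs and 541 and 523 TPM in ePP-β. Some tested markers were under 1 TPM in every ePP library and passed the filter through ePP-β alone. These were 3 alpha cell, 4 beta cell, 4 enterocyte, 9 hepatocyte, 2 yolk sac and 3 acinar and ductal markers. Over all 30 hepatocyte genes, tested or not, 25 were higher without overlap and 5 overlapped. For the 17 enterocyte markers, 14 were higher, 1 was lower and 2 overlapped. The part of these cells in the levels of the 10 genes was not tested.

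In the cluster of APOA1, APOC3 and APOA4, it was APOA4 that was far lower in SC-β, at 1.6 TPM, than in ePP-β, at 409 and 511 TPM. APOC3 was at 371 TPM in SC-β against 435 and 506 TPM, and APOA1 at 2254 TPM against 900 and 994 TPM. For every 100 TPM of APOA1 there were 45.5 and 51.5 TPM of APOA4 in ePP-β, 29.8 and 72.5 TPM in DMSO, 0.879 TPM in PP2 and 0.0712 TPM in SC-β. SC-β is 1 library of another batch, so this has no test.

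The comparison of ePP-P21 with ePP-P9 shows how stable the genes were over long expansion, and the rule did not name it, so limma's test is given for the members. Of the 8 genes tested, 1, FGB, was called higher and 0 lower, beside 1.07% and 0.0569% of all 15822 tested genes. Without overlap, 5 were higher and 2 lower, beside 41.3% and 13.1% of all tested genes. FGB was at 2.2 and 1.72 TPM at passage 9 and at 10.2 and 8.44 TPM at passage 21, a 4.75-fold difference of means. Its log2 fold change was 1.80 (SE 0.21, adjusted p = 0.0371), beside a median of 0.13 over all tested genes. The adjusted p ranged from 0.0129 to 0.653 over 12 alternative settings and was under 0.05 in 5. It was 0.113 without ePP-P21 replicate 1 and 0.145 without ePP-P21 replicate 2.

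FGA, the fibrinogen α chain encoded beside FGB, was at 0.594 and 1.42 TPM at passage 9 and at 7.41 and 6.1 TPM at passage 21 (log2 fold change 1.98, SE 0.28, adjusted p = 0.0434). FGG, the γ chain, was at 0.748 and 0.293 TPM and then at 1.21 and 2.13 TPM (log2 fold change 0.81, SE 0.31, adjusted p = 0.202). LCAT was the other of 34 tested secreted genes called higher, from a mean of 3.64 to 11.2 TPM (log2 fold change 1.40, SE 0.17, adjusted p = 0.0379), and 0 were called lower. FGA was below the 10 TPM of the naming rule and is given as a neighbour of FGB.

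The other tested members did not pass the threshold. The log2 fold changes were 0.65 for TTR (SE 0.18, adjusted p = 0.121), 0.53 for APOB (SE 0.22, adjusted p = 0.221) and 0.42 for AGT (SE 0.22, adjusted p = 0.333). They were 0.27 for AFP (SE 0.10, adjusted p = 0.189), 0.01 for SERPINA1 (SE 0.11, adjusted p = 0.957), -0.16 for APOA1 (SE 0.09, adjusted p = 0.355) and -0.47 for APOA2 (SE 0.14, adjusted p = 0.133). APOC3 and ALB were under 1 TPM in all 4 libraries and were not tested. APOC3 was nevertheless lower in both ePP-P21 libraries, at 0.147 and 0.295 TPM, than in both ePP-P9 libraries, at 0.809 and 0.764 TPM.

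Genes next to the members on the chromosome mostly did not move with them. Of the 2 nearest protein-coding genes on each side, 25 were outside the lists of secreted proteins. Of these, 17 were tested in each main comparison, with median log2 fold changes of 0.15 with I-BET151 and -0.06 in ePP-β. DSG2, a desmosomal cadherin 8 kb from TTR, had log2 fold changes of -0.42 and -0.06, and SIK3, a kinase gene 5.78 kb from APOA1, had -0.29 and -0.22. Around APOA2 the pattern differed with I-BET151. FCER1G, 1.59 kb away, was at 8.8 and 10.4 TPM with DMSO and at 0.353 and 1.15 TPM with I-BET151 (log2 fold change -2.63), TOMM40L was at 33.6 and 34.4 TPM and then at 11.7 and 11.4 TPM (-1.48), and NR1I3, a nuclear receptor gene, had a log2 fold change of -1.69, 0 of them called. In ePP-β, 2 of the 17 were called. TOMM40L was at 7.55 to 9.09 TPM in ePPs and at 24.5 and 20 TPM in ePP-β (log2 fold change 1.33, called higher). RASSF6, the gene beyond AFM from AFP, was at 0.261 to 1.29 TPM in ePPs and at 18.9 and 22.3 TPM in ePP-β (log2 fold change 3.79, called higher).

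The 7 neighbours that were themselves liver-type had medians of -1.66 and 2.91 over the 5 tested in each comparison. APOA4 was at 927 and 1473 TPM with DMSO and at 44.3 and 156 TPM with I-BET151 (log2 fold change -3.79, adjusted p = 0.10). FGA, at 8.74 and 26.6 TPM against 0.811 and 14 TPM, and FGG, at 11 and 78.5 TPM against 4.5 and 134 TPM, overlapped between DMSO and I-BET151 like FGB, and for both genes replicate 2 was the higher library of each group. AFM, the gene on the far side of AFP from ALB, was at most 1.26 TPM in any library.

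**Figure D5:**
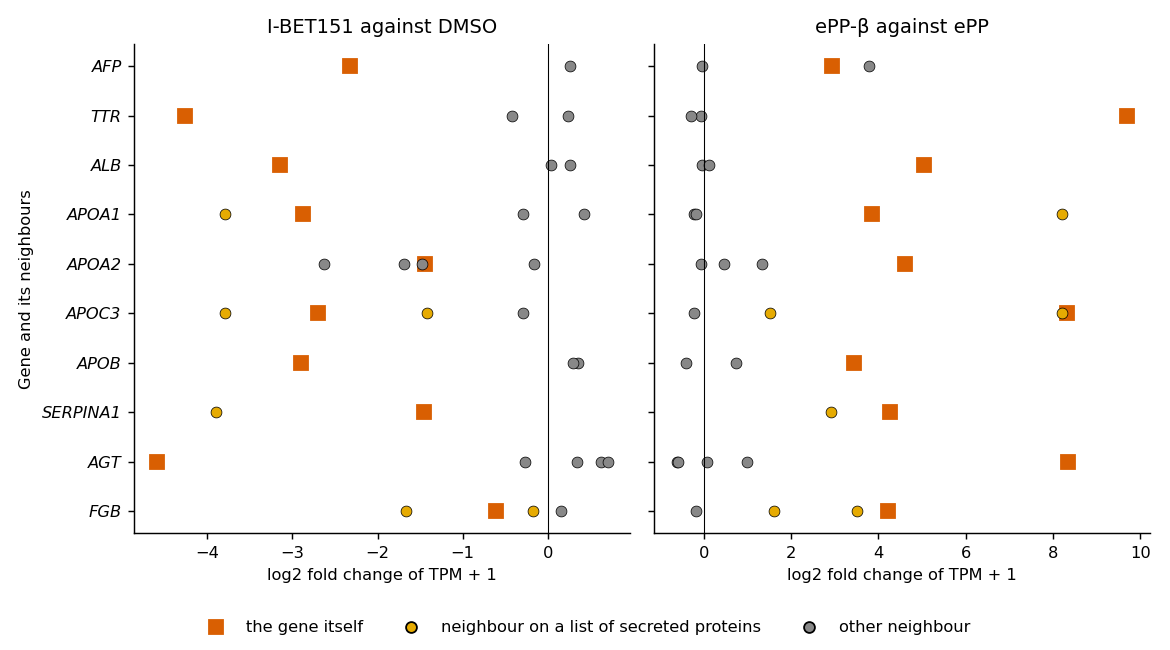
For each gene (square), its tested neighbours among the 2 nearest protein-coding genes on each side are shown as circles at their log2 fold change of TPM + 1, for I-BET151 against DMSO (left) and ePP-β against ePP (right). Grey neighbours cluster near 0, with medians of 0.15 and -0.06, apart from 3 of those of APOA2 on the left and, on the right, TOMM40L beside APOA2 and RASSF6 beside AFP.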

How the data were processed

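RNA-seq of 14 libraries in 9 groups was analysed, grouped by title. Per the labels and the methods, the authors extracted total RNA, made NEBNext Ultra libraries, sequenced paired ends, aligned reads to hg38 with HISAT2 2.1.0 (submitters' processing notes) and summed StringTie estimates per gene. The deposited values are TPM; the annotation release and use of strand are not given in the sources used here, and the authors tested with DESeq2, which needs counts. Depth is unknown, so precision rests on the spread of 2 libraries per group.

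Of 60624 identifiers, 60370 matched GENCODE release 44. Genes that reached 1 TPM in 2 or more libraries of a fit were tested on log2(TPM + 1) with limma 3.58.1 in R 4.3.3 (eBayes with trend, two-sided, Benjamini-Hochberg over all tested genes, within 1 batch, no block). This scale understates changes of low genes. A gene was called at an adjusted p under 0.05 and a log2 fold change beyond 1. In the ePP-β comparison, the passage means of ePP were averaged. ± is the SD over libraries. The code was tested on simulated data.

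The members and lists were chosen with earlier results of these data known. Beyond the members, up to 4 genes per list, comparison and direction could be named, by size of log2 fold change among called genes with no overlap and at least 10 TPM in the higher group, or by mean TPM where none was called. Neighbours at 1 TPM or more, 5 genes most like the members and defining markers were named too. Some genes that this rule names are not reported here. Other settings tried were median centring, quantile normalization, all 10 replicated libraries, a replicate block, pseudocounts of 0.1 and 0.01, a filter of 5 TPM, none at all, and leaving out each library.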

Additional observations from a re-analysis of the deposited data

How the results depend on the processing

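Members kept the direction of their log2 fold change under the 12 alternatives to the DMSO comparison and the 14 to the ePP-β comparison (12 for ALB and APOC3, which were not tested without an ePP-β library), except FGB, at 0.94 without I-BET151 replicate 1 and between -2.16 and 0.94 over the libraries left out. At ePP-P21 against ePP-P9, SERPINA1 was at -0.19 with median centring, -0.05 with quantile normalization, -0.03 without ePP-P21 replicate 2 and -0.12 without ePP-P9 replicate 1, in a range of -0.12 to 0.15 over the libraries left out. The counts of calls were less stable than the directions, and the cause was not tested. With I-BET151 the genes called higher, lower and lower among the other secreted proteins (1, 34 and 3) became 518, 1155 and 39 with all 10 replicated libraries, 0, 0 and 0 without a filter or with pseudocounts of 0.01 or 0.1, and 3, 135 and 9 with quantile normalization. Median centring gave 119 lower and 8 of the other secreted proteins. Leaving out 1 library, which assumes that the lone library of a group varies like the other group, gave 7 to 283, 100 to 751 and 9 to 32, the most without I-BET151 replicate 2, and the members' median ran from -3.51 to -1.51. For ePP-β, a filter of 5 TPM gave 2058 called higher in place of 3237. Quantile normalization gave 2866 lower in place of 1783, so that 47.5% of calls were higher in place of 64.5%. Leaving out 1 library gave 1623 to 3273 higher, 1656 to 2001 lower, and 23 to 47 higher among the other secreted proteins, the fewest without an ePP-β library. The members' median of 4.44 was 4.31 with median centring, 4.63 with a pseudocount of 0.01, 4.60 with a pseudocount of 0.1, 4.60 with quantile normalization and 4.19 to 4.51 without 1 library, over 8 members where an ePP-β library was left out. For ePP-P21 against ePP-P9, genes called higher and lower (169 and 9) became 0 and 1 with all 10 replicated libraries, 0 and 0 with median centring or without a filter, 10 and 3 with quantile normalization, and 0 to 453 and 0 to 25 without 1 library. A filter of 5 TPM gave 4 lower. The count of members called higher (1) was 0 with all 10 replicated libraries, median centring, no filter and quantile normalization and 0 to 1 without 1 library. The members' median of 0.34, over 8 members, was 0.14 with all 10 replicated libraries or no filter (10 members), a filter of 5 TPM (6 members) or median centring (8 members), 0.18 with quantile normalization and 0.31 to 0.38 without 1 library.

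The titles give every replicated group the numbers 1 and 2, but nothing says that a number marks a shared culture. The differences between replicates correlated across genes at 0.675 between DMSO and I-BET151, at -0.00401 to 0.0439 between the groups of the ePP-β comparison and at -0.00933 between ePP-P9 and ePP-P21. With the replicate number as a block, 828 genes were called higher, 1466 lower and 44 of the other secreted proteins lower with I-BET151, and 64 higher and 2 lower at ePP-P21, where 0 members were called.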

Other observations

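The factors that read liver genes did not move as 1 group. Of 21 hepatic transcription factor genes, all tested, 0 were called with I-BET151, 6 were lower and 2 higher at an unadjusted p under 0.05 in limma, beside 8.98% and 6.21% of all tested genes, and the median log2 fold change was -0.20. HNF4A overlapped between the groups (log2 fold change -0.98, SE 0.65, adjusted p = 0.542). CEBPA was at 183 and 137 TPM with DMSO and at 81.3 and 57.5 TPM with I-BET151 (log2 fold change -1.20, SE 0.35, adjusted p = 0.217), and FOXA2 had a log2 fold change of 1.17 (SE 0.50, adjusted p = 0.365).

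In ePP-β against ePP, 6 of 19 tested factors were called higher and 4 lower, beside 17.9% and 9.86% of all tested genes. NR1H4, the bile acid receptor, went from a mean of 0.235 to 16.4 TPM (log2 fold change 3.80, SE 0.19, adjusted p = 3.12e-05) and CEBPA from 19.9 to 63.3 TPM (log2 fold change 1.67, SE 0.10, adjusted p = 6.03e-05). ONECUT1 went from 19.2 to 1.58 TPM (log2 fold change -2.91, SE 0.22, adjusted p = 0.000138). HNF4A was lower without passing the fold threshold (log2 fold change -0.80, SE 0.12, adjusted p = 0.00194). CEBPD was the 1 of 17 tested factors called higher at ePP-P21 against ePP-P9, beside 1.07% of all tested genes, from 11 to 27 TPM (log2 fold change 1.22, SE 0.13, adjusted p = 0.035).

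The genes whose group means were most like the mean pattern of the 10 members were TM4SF4, SPINK1 and DLK1 (Pearson r of 0.98 each) and GLTPD2 and CFC1 (0.97 each), over 9 group means and among 13353 candidate genes. TM4SF4, a membrane protein of liver and gut that also stands among the alpha cell markers, had group means of 365 TPM with DMSO, 27.8 TPM with I-BET151, 6.96 and 10.5 TPM in ePP-P9 and ePP-P21 and 452 TPM in ePP-β. DLK1, a Notch-related membrane protein of fetal liver and islets, had 949, 88.1, 12.8, 8.09 and 329 TPM in the same order. The groups share batches, so these correlations are descriptive.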
